A study of Mus musculus with 2 samples.

Results

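Mir214, Mir199a-1, Mir199a-2 and Mir199b are 4 mouse miRNA genes that lie on the antisense strand of the dynamin genes Dnm1, Dnm2 and Dnm3. Their levels were read in whole stomach of mouse embryos of strain B6NCrl at embryonic day 14.5, in small RNA libraries with a size range below 30 nt. They were chosen by gene name, through their Ensembl identifiers, and are 4 of the 1973 miRNA genes counted. All 4 were detected, that is, had 10 or more counts in both libraries. The only group is mixed-sex stomach tissue with no treatment or allele named, in 2 biological replicates from different collection days, so no condition is compared and replicate and day cannot be told apart. The labels describe a single stomach for each replicate but give its sex as pooled male and female, so whether embryos were pooled is unclear.

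A miRNA gene is transcribed into a hairpin, from which Drosha and Dicer cut a 5p and a 3p strand, and the strand that is loaded into an Argonaute protein pairs with target mRNAs mainly through its seed, bases 2 to 8. Mir214 and Mir199a-2 are made from the long noncoding RNA Dnm3os, which in mouse is known from mesenchymal tissues such as the developing skeleton and lies downstream of the transcription factor Twist1. Members of this group are also studied in fibroblasts and in fibrosis. In the embryonic stomach, mesenchyme surrounds the epithelium and gives rise to connective tissue and smooth muscle.

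The mature sequences show which members a read can be assigned to, so they are given here with the seed in capitals, 5′ to 3′, from RefSeq (GRCm38.p6). All 4 members were matched in that table.
mmu-miR-214-5p: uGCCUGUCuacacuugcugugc
mmu-miR-214-3p: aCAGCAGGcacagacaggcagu
mmu-miR-199a-5p: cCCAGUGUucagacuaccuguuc
mmu-miR-199a-3p and mmu-miR-199b-3p: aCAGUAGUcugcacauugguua

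The sequences fall into 4 seeds. Both strands of Mir214 occur in 1 miRNA hairpin of the genome annotation (GENCODE M21, 2202 hairpins). The miR-199a-5p strand occurs in 2 hairpins, Mir199a-1 and Mir199a-2, and the 3p strand is the same in 3 hairpins, those of Mir199a-1, Mir199a-2 and Mir199b. The mmu-miR-199b-5p strand is named only, and the stretch of the Mir199b hairpin that matches miR-199a-5p differs from it by 1 substitution, C10U, counted from 1 at the 5′ end of miR-199a-5p. The substituted base is the capital in the next line.
Mir199b stretch: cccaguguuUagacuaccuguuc

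That stretch keeps the seed of miR-199a-5p (CCAGUGU) and occurs in no other hairpin. Among the mature sequences listed in RefSeq, a single relative outside the group carries one of the 4 seeds. It is miR-761, which shares CAGCAGG with miR-214-3p, and its gene Mir761 on chromosome 4 had 0 counts in both libraries. Only 916 of the 1973 genes had a listed sequence, and the seeds of the others were not searched. A count of 0 allows up to 3 counts, or 0.599 counts per 1000000 gene counts (CPM) in replicate 1 and 0.641 CPM in replicate 2.

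The hairpins are printed next because the Mir199 genes differ mostly outside their mature strands. Capitals mark bases covered by a 22-nt window that also occurs in a miRNA hairpin at another locus.
Mir214: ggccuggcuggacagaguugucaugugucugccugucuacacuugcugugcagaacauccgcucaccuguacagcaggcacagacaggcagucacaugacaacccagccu
Mir199a-2: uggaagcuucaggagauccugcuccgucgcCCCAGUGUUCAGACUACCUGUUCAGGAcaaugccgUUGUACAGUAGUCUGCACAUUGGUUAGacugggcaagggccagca
Mir199a-1: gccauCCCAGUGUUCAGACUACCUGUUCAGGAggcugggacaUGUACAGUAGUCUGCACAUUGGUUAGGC
Mir199b: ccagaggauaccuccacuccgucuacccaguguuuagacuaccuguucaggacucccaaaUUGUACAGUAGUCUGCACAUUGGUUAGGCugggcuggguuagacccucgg

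None of the 89 windows of Mir214 was shared. In Mir199a-2, 12 of 89 windows were shared, in 2 runs of 27 nt that cover both mature strands, and in Mir199a-1 it was 13 of 49 windows, in runs of 27 and 28 nt. In Mir199b the shared windows, 8 of 89, formed 1 run of 29 nt over the 3p strand. As far as the hairpins show, a read of 27 nt or less that starts at the annotated first base of miR-199a-5p cannot be assigned to Mir199a-1 or to Mir199a-2, whereas one that covers the substituted base of Mir199b can be assigned to it. Each mature strand was also taken with its start and its end moved by up to 2 nt, which gives 25 forms. For Mir214, all 25 forms of each strand occurred in no other hairpin. For the 5p strand it was 25 of 25 in Mir199b, 10 of 25 in Mir199a-2 and 10 of 25 in Mir199a-1. For the 3p strand it was 0 of 25 in Mir199b, 5 of 25 in Mir199a-2 and 0 of 25 in Mir199a-1.

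**Figure D1:**
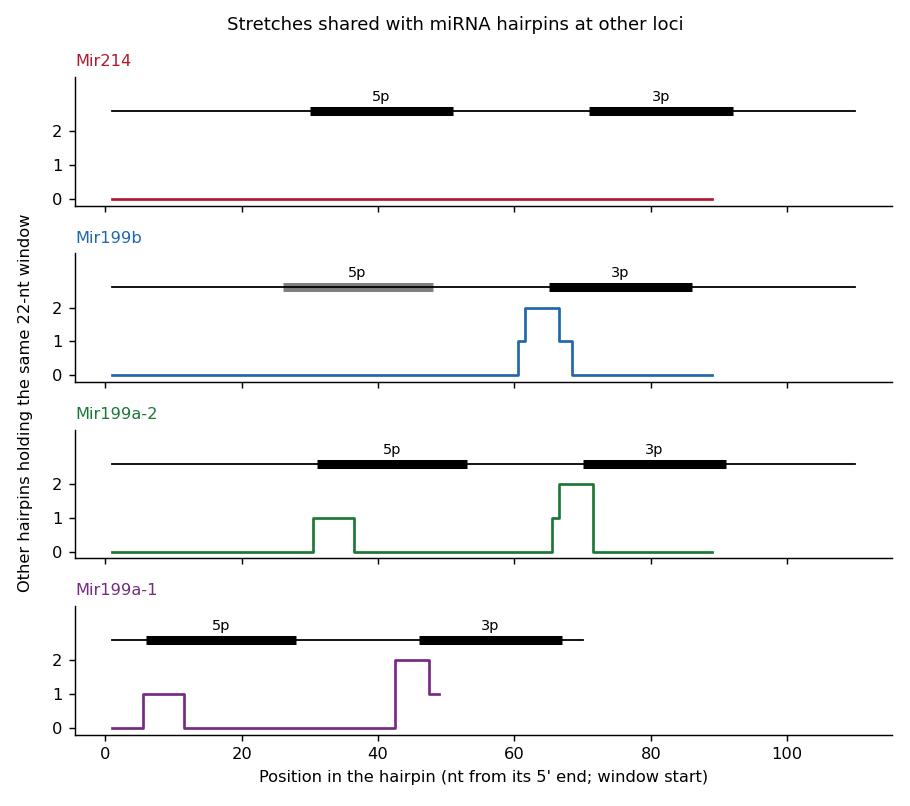
The number of miRNA hairpins at other loci that hold the same 22-nt window (y axis) is drawn against the start of the window in each member's hairpin (x axis, nt from its 5′ end), with the mature strands as bars above and the unlisted 5p stretch of Mir199b in grey. The line of Mir214 stays at 0, both strands of Mir199a-1 and Mir199a-2 have shared windows, and in Mir199b the 3p side alone has them.

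Of the 4 genes, Mir214 had the most counts in the embryonic stomach, among reads assigned to a gene. It had 70242 counts in replicate 1 and 71119 in replicate 2, or 14036 and 15197 CPM, and averaged 14616 ± 821 CPM (SD, n = 2). Its exact 95% binomial intervals, which cover counting error only, ran from 13933 to 14139 CPM in replicate 1 and from 15086 to 15308 CPM in replicate 2. Mir214 was thus high in both libraries, at place 17 of the 361 detected genes. In a bulk tissue such a level does not tell more expressing cells from more RNA per cell.

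The Mir199 genes were counted at much lower levels. Mir199b had 2335 and 2330 counts in replicates 1 and 2, or 467 and 498 CPM, with a mean of 482 ± 22.1 CPM (SD, n = 2) at place 129. Mir199a-2, which lies in the same transcript as Mir214, had 600 and 743 counts, or 119.9 and 159 CPM, with a mean of 139 ± 27.5 CPM at place 181. Mir199a-1 had 37 and 48 counts, or 7.39 and 10.3 CPM, with a mean of 8.82 ± 2.02 CPM at place 298. The 4 genes kept the same order in both libraries, Mir214 over Mir199b over Mir199a-2 over Mir199a-1, with no overlap between the ranges of any 2 of them.

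Together the 4 genes held 73214 counts in replicate 1 and 74240 in replicate 2, or 1.52% ± 0.087 of gene counts. Mir214 made up 95.9% of these counts in replicate 1 and 95.8% in replicate 2. The counts cover hairpins whole, so the 5p and 3p strands of a gene are not separated. Reads that map to several places stand on a line of their own in the tables, apart from any gene, and numbered 2437052 in replicate 1 and 2263676 in replicate 2. The tables do not tell how many of them carry a miR-199 sequence, and their part in the gap between Mir214 and the Mir199 genes was not tested.

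**Figure D2:**
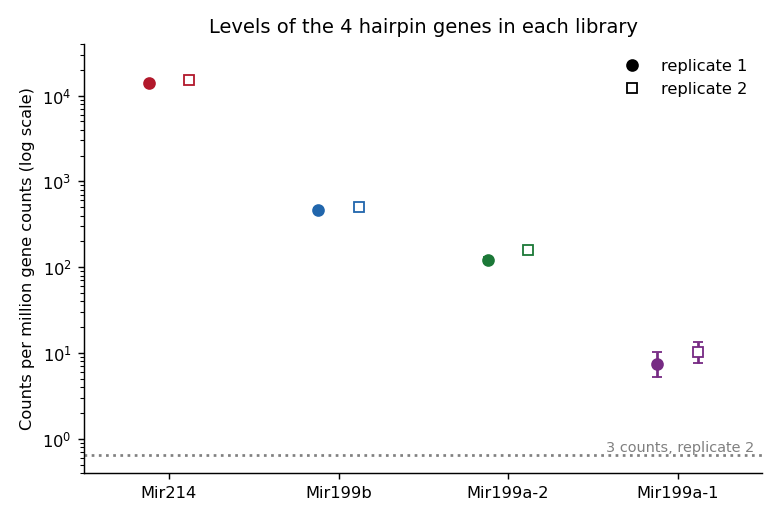
Level of each gene in each library, in CPM on a log axis, with filled circles for replicate 1, open squares for replicate 2 and bars for exact 95% binomial intervals. The dotted line is 3 counts in replicate 2, and the order of the 4 genes is the same in both libraries.

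**Figure D3:**
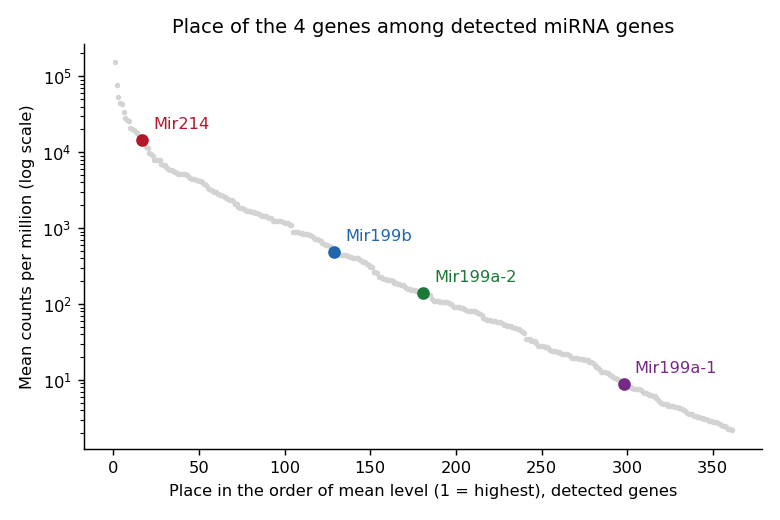
Mean level of the 361 detected miRNA genes (grey points, log axis, CPM) against their place in the order, with the 4 genes coloured. Mir214 stands at place 17, Mir199b at 129, Mir199a-2 at 181 and Mir199a-1 at 298.

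The strand columns of the tables placed these reads on the strand of the miRNA genes. Of 147454 counts of the 4 genes in both libraries, 1 lay on the opposite strand, at Mir214 in replicate 2. Over all genes the opposite strand held 2.75% of counts in replicate 1 and 2.73% in replicate 2. Transcripts of the dynamin genes themselves run on that opposite strand, so the counts of the members do not include reads in their direction, apart from that single count.

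The 2 hairpins of Dnm3os are neighbours on chromosome 1. Mir199a-2 (ENSMUSG00000070126.1) lies on the plus strand at 162217814 to 162217923 of GRCm38 (mm10), and Mir214 (ENSMUSG00000065516.1) follows on the same strand at 162223368 to 162223477, 5444 nt further on. Both are exonic in Dnm3os and intronic in Dnm3, which runs on the minus strand. GENCODE M21 gives 6 transcripts of Dnm3os, of which 2 hold both hairpins whole within an unspliced exon. In 2 others an exon ends at a splice site at position 162217900, inside the Mir199a-2 hairpin and within its 3p strand. No splice site falls within the Mir214 hairpin, although 1 of these transcripts ends inside it, at position 162223393.

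**Figure D4:**
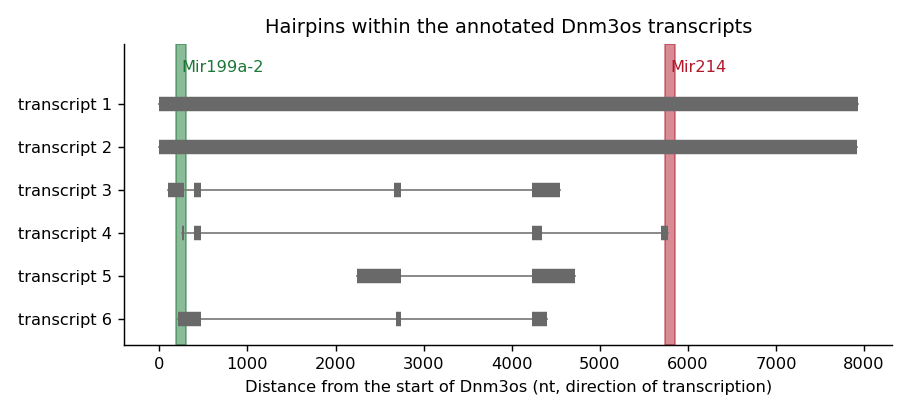
Annotated Dnm3os transcripts, with exons as thick bars, are drawn against the distance from the start of Dnm3os in nt. The hairpins of Mir199a-2 and Mir214 are the coloured bands, and transcripts 1 and 2 hold both of them whole.

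Although they share a transcript, the counts of Mir214 exceeded those of Mir199a-2 117-fold in replicate 1 (95% interval 108 to 127) and 95.7-fold in replicate 2 (89.0 to 103). The log2 ratio was 6.73 ± 0.21 (SD, n = 2), far above the spread between replicates. The intervals of the libraries do not overlap, which is a difference beyond counting error alone. Of the 141 pairs of adjacent same-strand miRNA genes within 10 kb whose higher member was detected, 32 had a larger ratio, and the median over pairs was 3.24. In 39 of these pairs the lower member had under 3 counts in a library and was set to 3. Among the other 102 pairs, 10 had a larger ratio than Mir214 over Mir199a-2, and the median was 2.82.

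Some neighbouring pairs differed by more. The 5 largest ratios were those of Mir431 over Mir3070b, Mir137 over Gm24155, Mir154 over Mir453, Mir434 over Mir432 and Mir467e over Mir466p, in all of which the lower gene had at most 1 count in each library. Mir143 and Mir145a, a pair known from smooth muscle, had a log2 ratio of 5.75 ± 0.080 and stood at place 46, whereas the Dnm3os pair stood at place 33. A neighbouring ratio of this size was thus not confined to Dnm3os. Among pairs whose lower member had mature sequences listed in RefSeq, 3 had a lower member with none of them confined to 1 hairpin. These were Mir214 over Mir199a-2, Mirlet7d over Mirlet7a-1 at a log2 ratio of 6.15 and Mirlet7b over Mirlet7c-2 at 4.13. Lower members without a listed sequence, such as Mir466p, were not placed. Mir100 over Mirlet7a-2, at a log2 ratio of 5.25, was not among the 3, because the listed sequences of Mirlet7a-2 all occurred in 1 hairpin. Which pairs are counted here thus depends on the strands that are listed.

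**Figure D5:**
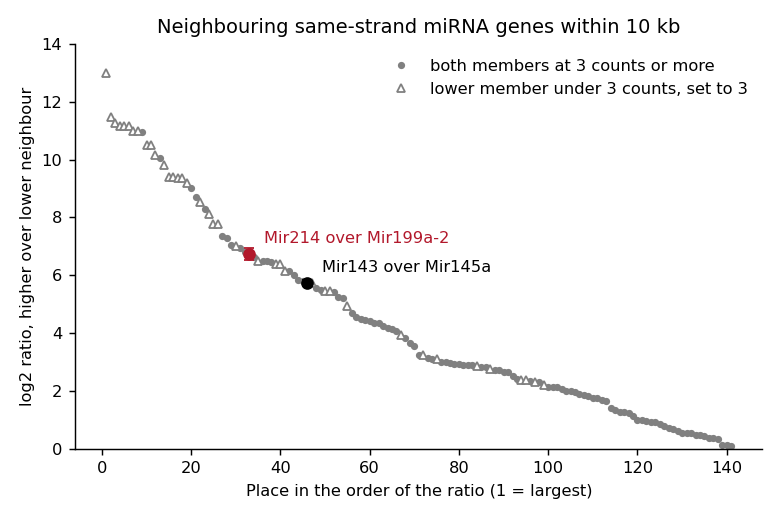
The log2 ratio of the higher over the lower gene (y axis) for 141 neighbouring same-strand pairs within 10 kb, in order of size (x axis). Open triangles mark pairs whose lower gene was set to 3 counts, the bar on the red point is the SD of 2 libraries, and Mir214 over Mir199a-2 stands at place 33.

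The other 2 members lie in introns of dynamin genes, each on the opposite strand and with no same-strand host gene in the annotation. Mir199b (ENSMUSG00000092807.1) is on chromosome 2 at 32318460 to 32318569, plus strand, within Dnm1, the dynamin of nerve terminals. Mir199a-1 (ENSMUSG00000065547.1) is on chromosome 9 at 21496495 to 21496564, minus strand, within the broadly expressed Dnm2. The same-strand neighbour of Mir199b, the annotated miRNA gene Gm23363 at 116 nt, had 2 and 4 counts in replicates 1 and 2.

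Mir199b exceeded Mir199a-2 3.89-fold in replicate 1 (95% interval 3.56 to 4.26) and 3.14-fold in replicate 2 (2.89 to 3.41), a log2 ratio of 1.80 ± 0.22 (SD, n = 2). The gap was larger than the spread between replicates. Beside it stands the share of 5p forms that occur in 1 hairpin alone, 25 of 25 for Mir199b and 10 of 25 for Mir199a-2. Among 5p forms that keep the annotated start, it was 5 of 5 for Mir199b and 0 of 5 for Mir199a-2. For the 3p strand the order was the other way, 0 of 25 for Mir199b and 5 of 25 for Mir199a-2. Among 3p forms with the annotated start, it was 0 of 5 for Mir199b and 1 of 5 for Mir199a-2. The part of either strand in the levels was not tested. Between the 2 genes that make the identical miR-199a-5p, Mir199a-2 exceeded Mir199a-1 16.2-fold in replicate 1 (11.6 to 23.3) and 15.5-fold in replicate 2 (11.6 to 21.2). Here the share of own forms was the same for the 5p strand, 10 of 25 each, or 0 of 5 each with the annotated start. For the 3p strand it was 5 of 25 against 0 of 25, or 1 of 5 against 0 of 5 with the annotated start. Summed, the 3 Mir199 genes reached 594 CPM in replicate 1 and 667 CPM in replicate 2, and Mir214 exceeded this sum 23.6-fold and 22.8-fold.

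The levels were also set beside how many hairpins hold each gene's mature sequences. Of 1973 genes, 916 had mature sequences in the RefSeq table. Among these, 45 had no mature sequence confined to 1 hairpin, and 8 of the 45 were detected, with a median level of 110.1 ± 15.4 CPM (SD, n = 2). Over the 10 of these genes with a count in either library, the median was 56.5 CPM. The 8 detected genes are Mir199b, Mirlet7a-1, Mir199a-2, Mir3074-1, Mirlet7c-2, Mir199a-1, Mir129-1 and Mir219a-2, and none reached 1000 CPM. Mir199b stands among them on its 3p strand, the strand listed for it. The classes rest on the listed strands alone and can misplace a gene whose other strand is not listed. Of 815 genes whose listed mature sequences all occur in 1 hairpin, 279 were detected, with a median of 178 ± 5.16 CPM, and 88 reached 1000 CPM. Mirlet7a-2 was placed in this class, although Mirlet7a-1 is among the 8 genes above. Of 56 genes with some but not all mature sequences in 1 hairpin, 38 were detected, with a median of 52.0 ± 7.21 CPM, and 4 reached 1000 CPM. Neither the detected share nor the median thus followed the 3 classes in order. The number of detected genes that reached 1000 CPM did, at 88 of 279, 4 of 38 and 0 of 8. Mir214 was at place 16 of these 279. The 1057 genes without a listed sequence fall outside the 3 classes. Of these, 36 were detected and 12 reached 1000 CPM, with Mir143 the highest. These values describe the libraries, and no test was made of them.

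The genes nearest to each member in level were taken by the distance of log2(CPM + 1) over the 2 libraries. For Mir214 these were Mir21a, known from fibrotic and proliferating tissue, at 13564 ± 64.8 CPM, then Mir23a at 16056 ± 356 CPM and the X-linked Mir322 at 16594 ± 957 CPM. Mir23a was also next above Mir214 and Mir21a next below it, and neither range overlapped with that of Mir214. For Mir199b the nearest were Mir223, a myeloid miRNA, at 494 ± 15.5 CPM, Mir665 and Mir598, and its range overlapped with those of Mir223 above and Mir142b below. For Mir199a-2 they were Mir135b at 139.7 ± 28.2 CPM, Mir669c and Mirlet7a-2, and for Mir199a-1 they were Mir1188 at 9.43 ± 1.47 CPM, Mir1298 and Mir488. Mir199a-2 overlapped in range with Mir135b above and Mir679 below, and Mir199a-1 with Mir1188 above and Mir129-1 below. With 2 libraries, this likeness is one of level and carries no evidence of a shared pattern.

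Cell type markers give the setting of these levels. The 4 dynamin-antisense genes totalled 15247 ± 873 CPM (SD, n = 2), against 63204 ± 587 CPM for epithelial miRNAs, among them the Mir200 family and Mir205, of which 8 of 8 were detected. Mir143 and Mir145a of smooth muscle and mesenchyme totalled 155329 ± 12469 CPM, while their listed relative Mir145b had 0 counts in both libraries. Most of that total was Mir143, at 152490 ± 12395 CPM, whereas Mir145a had 2839 ± 73.5 CPM, below Mir214. Further miRNAs known from mesenchyme and matrix totalled 18256 ± 170.2 CPM, with 8 of 10 detected. Mir21a led them, Mir22 had 2409 ± 112 CPM and the cartilage miRNA Mir140 1815 ± 10.1 CPM. Mir29b-1 and Mir29b-2 were not detected, at 7 and 2 counts and at 1 and 4 counts in replicates 1 and 2. Each has a mature sequence that occurs in more than 1 hairpin, and reads that map to several places are counted for no gene. Their low counts thus do not show that miR-29b was absent. Endothelial Mir126a had 20389 ± 1732 CPM. Lower totals were found for neural markers (1753 ± 115 CPM). Only Mir137 of their 6 counted genes was detected, and Mir124a-1, Mir124a-2 and Mir9-2 were at 0. Totals were also lower for leukocytes (579 ± 27.0 CPM, 3 of 3), erythroid cells (180.4 ± 46.5 CPM, 2 of 2) and liver (61.3 ± 6.41 CPM). Striated muscle totalled 107 ± 11.1 CPM, with 3 of 7 detected and Mir133a-1 and Mir133a-2 at 0. Most of it was Mir208b, at 90.7 ± 6.21 CPM. The neural, leukocyte and striated muscle lists held 7, 4 and 8 genes, but not all were counted, Mir142 of the leukocyte list among those missing. The annotated gene Mir142b, at 472 ± 35.0 CPM, was not on that list and is not in the leukocyte total. Reads that fit several copies of a gene, such as Mir124a-1 and Mir124a-2, would be counted for none of them. The 0 counts of such genes thus do not show absence. The tissue measurement does not tell in which cells the members were expressed, so the name mesenchymal rests on outside knowledge.

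How far the members varied between the replicates was measured as the log2 ratio of replicate 1 over replicate 2. The test was a two-sided exact binomial test, conditional on the sum of each gene's counts, and p-values were adjusted by Benjamini-Hochberg over all 361 detected genes. It sets 1 library against another and tests no condition. All 4 members were lower in replicate 1. Mir214 had a log2 ratio of -0.11 (95% interval -0.13 to -0.10, exact test, adjusted p = 2.87e-49) and Mir199a-2 one of -0.41 (-0.56 to -0.25, exact test, adjusted p = 1.33e-06). The ratio was -0.09 for Mir199b (-0.18 to -0.01, exact test, adjusted p = 0.0616) and -0.47 for Mir199a-1 (-1.13 to 0.18, exact test, adjusted p = 0.273).

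By adjusted p, 2 of the 4 members differed, against 42.1% of all detected genes, so this share is near the background. With an absolute log2 ratio of 1 or more in addition, 0 of 4 members were called, likewise with TMM scaling and with size factors, against 1.11% of all detected genes. At an unadjusted p under 0.05 by the exact test, 3 of 4 members differed, and 178 of 361 genes did. The median log2 ratio of the members was -0.26, that of all detected genes was -0.04, and the absolute ratio of Mir199a-2 was larger than that of 85.3% of detected genes. Among the 152 genes past the adjusted p, 63 were higher and 89 lower in replicate 1. This split moved to 94 and 74 with TMM scaling and to 115 and 58 with size factors, under both of which all 4 members stayed below 0. The sizes of the member ratios depended on the scaling. The ratio of Mir214 was -0.06 with TMM scaling (exact binomial test, adjusted p = 4.47e-15) and -0.02 with size factors (exact binomial test, adjusted p = 0.0039). That of Mir199b was -0.04 with TMM scaling (exact binomial test, adjusted p = 0.486) and -0.0034 with size factors (exact binomial test, adjusted p = 0.968). Mir199a-2 moved less, to -0.35 with TMM scaling and -0.31 with size factors, and stayed past the threshold under both, and Mir199a-1 moved to -0.42 and -0.38 and stayed short of it.

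The ratios between members showed the same unevenness without any scaling. The log2 ratio of Mir214 over Mir199b was 4.91 in replicate 1 and 4.93 in replicate 2, with overlapping intervals. The ratio of Mir214 over Mir199a-2 was 6.87 in replicate 1 (6.76 to 6.99) and 6.58 in replicate 2 (6.48 to 6.69), and that of Mir199b over Mir199a-2 was 1.96 and 1.65. Mir214 and Mir199b thus kept their proportion between the replicates within counting error, and Mir199a-2 stood higher in replicate 2 against both.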

How the data were processed

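Small RNA of 2 stomach libraries was analysed from the deposited gene counts, which are whole numbers per miRNA gene. The authors used mm10 and GENCODE M4 for them, per the text deposited with the files. No source used here names the aligner or the counter. From the values, the 2nd and 3rd count columns hold the own and the opposite strand and add up to the 1st, which was used. The 4 lines that name no gene, left out of totals, held 13.0% ± 0.72 of reads as unmapped, 27.6% ± 0.28 as mapping to several places, 2.41% ± 0.12 outside genes and 0 as ambiguous (SD, n = 2). Replicate 1 held 5004548 gene counts, and replicate 2 held 4679914.

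Symbols came from GENCODE M21 (GRCm38) by Ensembl identifier for 1894 of 1973 genes. CPM is counts per 1000000 gene counts, a share and not an amount per cell. Reads carry no molecular identifiers, so intervals and the floor of 3 counts cover counting error only. Shared windows were searched in the 2202 GENCODE miRNA hairpins and not in the rest of the genome. The library test (scipy 1.17.1) was tested on simulated counts that varied by counting error only. That run does not cover further variation between real libraries. A quasi-likelihood fit has no contrast with 1 group, and edgeR 4.0.16 and DESeq2 1.42.0 gave scaling factors only. Other alternatives were the denominator, own-strand counts, count filters, summed gene copies, the pair distance and leaving out a replicate. Genes named are the members, their 3 nearest genes and next neighbours in level, the 5 largest neighbouring pairs and the marker lists. Other genes, such as those without a mature sequence of their own, were chosen after their values were seen. Members and lists were chosen with earlier results of these data known.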

Additional observations from a re-analysis of the deposited data

How the results depend on the processing

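With reads that map to several places added to the denominator, the total of the 4 genes was 10265 CPM and every member fell in the same proportion within each library. TMM factors, size factors and own-strand counts moved the total by less than 1 SD, and with 1 replicate left out it ran from 14629 to 15864 CPM. Mir214 over Mir199a-2 was 4.54 (log2) with all 3 Mir199 genes summed below it and within 1 SD with Mir199a-1 added or with own-strand counts, and ran from 6.58 to 6.87 with 1 replicate left out. Mir199b over Mir199a-2 ran from 1.65 to 1.96. The share of neighbouring pairs with a smaller ratio than the Dnm3os pair, 76.6%, was 73.8% when the higher gene needed 100 counts in both libraries. A limit of 5 kb left the Dnm3os pair out and gave no value. The median of genes without a mature sequence of their own was 56.5 CPM over the 10 of them with a count in either library, in place of 10 counts in both, and 87.2 CPM on the own strand, and 103 CPM without Mir199b, an alternative chosen after seeing the data. Summing gene copies gave the 3 Mir199 genes a joint log2 ratio of -0.17 (exact binomial test, adjusted p = 2.10e-05), past the threshold that Mir199b and Mir199a-1 missed alone. The adjusted p of Mir199b ranged up to 0.968, with size factors. Each member's ratio stayed below 0 under the 5 alternatives of the library test, and 4 to 6 genes, or 3 with copies summed, passed both thresholds. Depth limits Mir199a-1 most, at 37 and 48 counts. No paired analysis was possible because there is 1 group.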
